A study of Homo sapiens with 10 samples.

Results

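The genes described here were the expressed ZNF genes, a large family of human zinc finger genes with numbered symbols. They were chosen by symbol (ZNF followed by a number) and selected on their level, as a mean raw count of 300 or more over the 8 untreated libraries. This gave 186 of the 478 ZNF-numbered genes among the 59453 genes of the table, and the other 292 fell under the minimum. The rule used only the mean level over all genotypes, not a difference between groups. All 186 genes passed the filter on low counts in every comparison. Just inside the minimum stood ZNF813, ZNF189 and ZNF700 with mean counts of 300, 300.8 and 304.5, and just outside it stood ZNF584, ZNF175 and ZNF304 with 298.6, 297.8 and 294.4.

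RNA-seq was performed on HAP1 cells, a near-haploid human line that derives from a chronic myeloid leukaemia line and grows attached. The 8 untreated libraries came from wildtype cells (WT, clones 11 and 2), cells without the DNA glycosylase MUTYH (clones 7 and 8), cells without the DNA glycosylase OGG1 (clones 1 and 22) and cells without both (DKO, clones 4 and 14), with 1 library per clone and each knockout made by CRISPR-Cas9. OGG1 removes oxidised guanine from DNA and MUTYH removes adenine paired with it. Both DKO clones descend from OGG1 knockout clone 22, so these 3 libraries share that origin. The other 2 libraries came from the same WT clones after treatment with 100 µM H2O2 and were taken at 24 hours. They were compared with the 2 untreated WT libraries already counted among the 8. Whether treated and untreated libraries were prepared and sequenced together is not given in the sources used here. The part of this in the H2O2 comparisons was not tested. No treated knockout library was analysed here. With 1 library per clone, a genotype is represented by 2 clones, and p-values of the genotype comparisons measure the spread between these clones.

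Most ZNF genes encode proteins with a row of C2H2 fingers, small folds in which cysteines and histidines hold a zinc ion and a few residues contact DNA bases. Many of them also carry a KRAB domain, which recruits the co-repressor TRIM28 and the histone methyltransferase SETDB1, and such proteins are known for silencing transposable elements. Their genes lie in clusters, above all on chromosome 19, where they arose by repeated duplication. Others in the family have different work, such as ZNF207, a kinetochore and spindle protein.

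The 186 genes followed this layout. Of the 185 genes matched by symbol to GENCODE v44 on GRCh38, 60 were on chromosome 19, 21 on chromosome 7, 17 on chromosome 16 and 10 on chromosome 1. The translated coding sequences held a median of 9 C2H2 fingers, from 0 in 4 genes (ZNF185, ZNF330, ZNF703 and ZNF839) to 36 in ZNF142. ZNF462 had 33 fingers and ZNF91, which is known to repress SVA retrotransposons, had 31. The unit that repeats is 84 bases long, and 1243 units of this length were found in 158 of the genes. Between units the median identity was 58.3% of positions. Units from 6 of the genes that the results below turn on are shown, from the GENCODE v44 transcripts (GRCh38), with the codons of the zinc-binding cysteines and histidines in capitals.
ZNF681, chr19:23744281-23744364, minus strand: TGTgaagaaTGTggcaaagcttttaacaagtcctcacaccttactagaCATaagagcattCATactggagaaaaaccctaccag
ZNF569, chr19:37413845-37413928, minus strand: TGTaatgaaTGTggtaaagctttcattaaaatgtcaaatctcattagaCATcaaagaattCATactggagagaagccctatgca
ZNF736, chr7:64348554-64348637, plus strand: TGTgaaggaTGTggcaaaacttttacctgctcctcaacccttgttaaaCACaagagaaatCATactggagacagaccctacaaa
ZNF117, chr7:64978821-64978904, minus strand: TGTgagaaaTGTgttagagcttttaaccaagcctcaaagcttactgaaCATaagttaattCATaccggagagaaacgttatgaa
ZNF605, chr12:132926537-132926620, minus strand: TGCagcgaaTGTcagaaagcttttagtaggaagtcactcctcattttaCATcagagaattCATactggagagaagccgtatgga
ZNF551, chr19:57687368-57687451, plus strand: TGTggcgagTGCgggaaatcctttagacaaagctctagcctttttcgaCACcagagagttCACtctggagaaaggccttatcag
The capitals stood at the same positions in all 6, and between pairs of these units 58.3% to 78.6% of the bases were identical. Identity of single units does not show that reads were shared between genes, so shared 50-base stretches were counted as well. How the counting treated strand, and reads that align in more than 1 place, is not given in the sources used here. For 12 of the genes more than 20% of the 50-base stretches of their exons also occurred in another gene, among them ZNF263 at 49.12%, ZNF511 at 44.25%, ZNF417 at 37.86% (with ZNF587) and ZNF324 at 37.6% (with ZNF446), and their counts are uncertain. The median over the genes was 0.19%.

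Library totals were alike, from 22225091 to 22674964 counts, and the ZNF genes took 0.708% to 0.825% of them, lowest in OGG1 clone 22 and highest in treated WT clone 11. At this depth 1 CPM rested on 22.2 to 22.7 counts. The OGG1 transcript had 27 counts in OGG1 clone 1 and 254 in OGG1 clone 22, against 275 and 295 in the WT clones, and 215 and 223 in DKO clones 4 and 14, so its level separated clone 1 but not clone 22 from WT. MUTYH had 101 and 83 counts in the MUTYH knockout clones and 106 and 50 in DKO clones 4 and 14, against 89 and 105 in WT. A Cas9 edit need not lower a gene's RNA, so these counts do not check the labels. The authors report that targeted mass spectrometry of the proteins verified the knockouts in every clone. The largest component of the differences between clones of the same genotype, taken over genes outside the family (49.8% of their variance), put 1 clone of each genotype on either of 2 sides, as its construction requires, with WT clone 2, MUTYH clone 8, OGG1 clone 22 and DKO clone 14 on one side and WT clone 11, MUTYH clone 7, OGG1 clone 1 and DKO clone 4 on the other. Mitochondrial genes took 3.75% to 5.02% of the counts on the first side and 5.14% to 7.46% on the second. Blood markers were low, with CD34 at 3 to 23 counts and CD33 at 1 to 11. GATA1 had at most 5 counts, PTPRC at most 3, SPI1 and HBG2 at most 1, and MPO and HBG1 had 0. Other lineages were mixed. Of the epithelial markers KRT18 had 618 to 1218 counts, KRT8 191 to 1021 and EPCAM 3 to 66, and of the fibroblast markers COL1A1 had 342 to 1053, COL1A2 0 to 23 and DCN 0 to 16.

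Levels of the family spanned a wide range. Mean counts over the 8 untreated libraries ran from 300 to 6700.9, with a median of 633.9, and 52 of the 186 genes reached 1000. The 3 highest were ZNF207 with a mean count of 6700.9, ZNF664 with 5803.2 and ZNF609 with 4269.1. Per kilobase of exon the order differed, with 915.3 counts per kb for ZNF664, 880.9 for ZNF146 and 795.7 for ZNF711, which is mutated in an X-linked intellectual disability. ZNF207 had 423.6 counts per kb.

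Most of these genes hardly differed between the 8 untreated libraries. The range of log2 CPM (counts scaled to library size, TMM-normalised) over the libraries had a median of 0.46, a 1.37-fold difference between the highest and the lowest library. It was 0.56 over the 9319 other genes with a mean count of 300 or more. Among those other genes are 41 zinc finger genes with symbols of ZFP, ZBTB, ZKSCAN or ZSCAN and a number, and their median range was 0.48. A range over 1 was found in 9 ZNF genes (4.84%), against 12.1% of the 9319 other genes and 4.88% of these 41. The narrow range was thus not particular to the ZNF genes. The steadiest was ZNF569, a KRAB zinc finger gene on chromosome 19, at 14 and 14.5 CPM in WT clones 11 and 2, 13.4 and 13.9 in MUTYH clones 7 and 8, with OGG1 clones 1 and 22 at 13.2 and 13.7 and DKO clones 4 and 14 at 13.3 and 13.8. ZNF358 and ZNF7 followed, with ranges of 0.14 and 0.15.

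The widest range, 1.66 on the log2 scale, belonged to ZNF736, a zinc finger gene on chromosome 7 (chr7:64307459-64356634, plus strand). It read 16.3 and 13.1 CPM in WT clones 11 and 2 and 20.8 and 6.53 CPM in MUTYH clones 7 and 8. It then read 20.3 and 9.85 CPM in OGG1 clones 1 and 22, with DKO clones 4 and 14 at 14.3 and 12.2 CPM. Within each genotype the clone of the first side read lower, the 2 sides did not overlap, and the knockouts did not separate from WT. The pseudogene TRIM60P18 lies over 7.4% of its exons. The 3 genes whose log2 CPM followed ZNF736 most closely over the 8 libraries were ZNF592 (Pearson r = 0.941), which encodes a subunit of a co-repressor complex, ZNF622 (r = 0.829), a factor of ribosome assembly, and ZNF202 (r = 0.818), a repressor of lipid metabolism genes. These r values are descriptions over 8 libraries that share the division into sides.

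**Figure D1:**
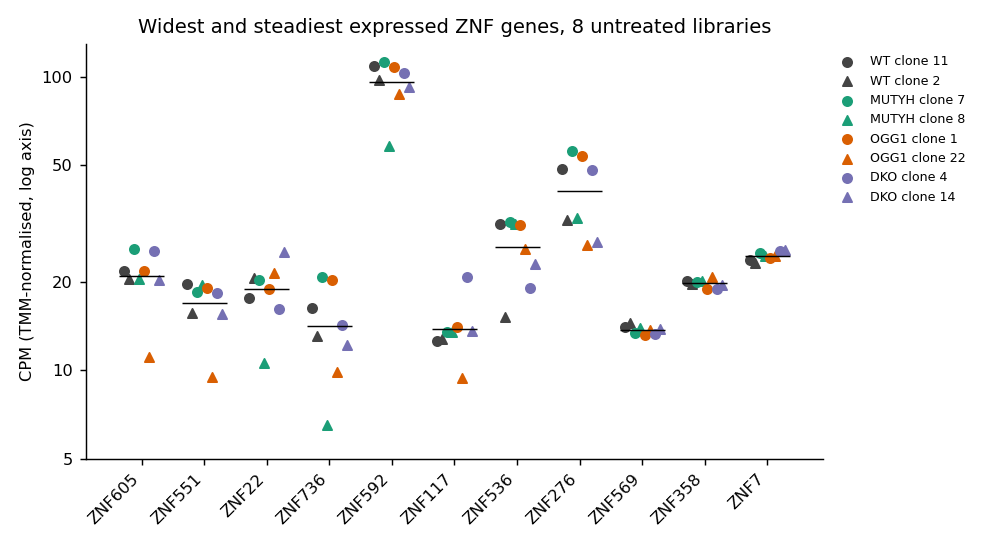
Level of the 8 ZNF genes with the widest range or the largest gap of 1 library and of the 3 steadiest, in CPM on a log axis. Each point is 1 untreated library, coloured by genotype, with circles for one side of the libraries and triangles for the other, and the line is the mean of the 8 libraries. Single triangles stand below the rest for ZNF605 and ZNF551 (OGG1 clone 22) and for ZNF22, ZNF736 and ZNF592 (MUTYH clone 8), and the triangles and circles of ZNF276 do not overlap.

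For several genes 1 library stood apart. ZNF605, a gene of 17 fingers on chromosome 12 (chr12:132918306-132956306, minus strand), read 20.3 to 25.9 CPM in 7 libraries and 11.1 CPM in OGG1 clone 22. ZNF551 on chromosome 19 read 15.5 to 19.7 CPM in 7 libraries and 9.49 in OGG1 clone 22. Its neighbour ZNF776, which starts 29.5 kb further on, was also lowest in that clone, at 11.9 CPM against 16.5 to 20.2 CPM elsewhere. Both genes overlap the same unnamed gene, over 4.3% of the exons of ZNF551 and 11.6% of those of ZNF776, and share 3.52% and 10.49% of their 50-base stretches with it, so their values may not be independent. By contrast the neighbour on the other side, ZNF211 (37.9 kb away), read 13.6 CPM there and 12.8 to 17.0 CPM elsewhere. The DKO clones, which descend from OGG1 clone 22, did not share these low values, at 25.4 and 20.3 CPM for ZNF605 and 18.3 and 15.5 CPM for ZNF551.

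MUTYH clone 8 stood apart in the same way for other genes. ZNF592 read 58.0 CPM there and 87.0 to 112 CPM in the other libraries. ZNF22 read 10.6 CPM there against 16.2 to 25.3 CPM elsewhere. CEP164P1, a pseudogene, lies over 37.9% of the exons of ZNF22. In DKO clone 4 the chromosome 7 gene ZNF117 read 20.8 CPM against 9.45 to 14 CPM elsewhere. The exons of ZNF117 overlap ERV3-1 over 7.7% of their length. The nearest family members of ZNF736 and ZNF117 within 200 kb, ZNF680 and ZNF273, had a Pearson r of -0.55 and -0.14 with them over the 8 libraries, and ZNF26 beside ZNF605 had r = 0.62, all given as descriptions.

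ZNF276 separated the sides rather than a clone. It read 48.4, 55.8, 53.7 and 47.9 CPM in WT clone 11, MUTYH clone 7, OGG1 clone 1 and DKO clone 4, and 32.5, 32.9, 26.7 and 27.4 CPM in WT clone 2, MUTYH clone 8, OGG1 clone 22 and DKO clone 14. Its treated WT libraries both read like the lower side, at 35.7 CPM in clone 11 and 35.3 CPM in clone 2. FANCA, a DNA repair gene, lies over 32.3% of the exons of ZNF276. In all, the sides did not overlap for 41 of the 186 genes (22%), 20 of them higher on the first side and 21 lower, against 40% of the other genes with a mean count of 300 or more. Of the ZFP, ZBTB, ZKSCAN and ZSCAN genes at that level the sides did not overlap for 24.4%. The sides were found in the data and their part in the genotype comparisons was examined by taking side as a block, which is described with those comparisons.

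Between the 2 clones of a genotype few of the genes differed over 2-fold. There was 1 in WT (ZNF536; 2% of the other genes at 300 or more), 1 in MUTYH knockout (ZNF736; 2.24%), 3 in OGG1 knockout (ZNF736, ZNF276 and ZNF551; 3.23%) and 0 in DKO (1.45%). The median difference between clones was 0.14, 0.15, 0.24 and 0.18 on the log2 scale in the same order.

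None of the 186 ZNF genes was called between a knockout and WT. A gene was called when edgeR's quasi-likelihood test gave it a P of 0.05 or less before adjustment and the groups differed over 2-fold in either direction. The count was 0 for MUTYH knockout, OGG1 knockout and DKO against WT and 0 for DKO against OGG1 knockout. Calls were rare among all genes tested (1.19%, 1.67%, 1.77% and 1.44%) and rarer among the other genes at 300 or more (0.118%, 0.311%, 0.215% and 0.204%), so a count of 0 among 186 was close to the background. Whatever the fold, 0 of the genes had P of 0.05 or less before adjustment in each comparison with WT (0.751%, 1.56% and 1.67% of the other genes) and 3 had in DKO against OGG1 knockout (1.74%). The Wald test of DESeq2 also called 0 and put 0, 0, 0 and 2 of the genes at that P.

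The differences themselves were small. Log2 fold changes of the family ran from -0.3 to 0.46 for MUTYH knockout, -0.39 to 0.47 for OGG1 knockout and -0.43 to 0.45 for DKO against WT, and their medians were 0.02, -0.05 and 0. The 95% interval of the fold change lay wholly within 2-fold for 181, 179 and 180 of the 186 genes, so a larger change was outside the interval for most of them. For the other genes at 300 or more it was 89%, 87.1% and 87.9%. For the ZFP, ZBTB, ZKSCAN and ZSCAN genes among these it was 100%, 100% and 92.7%. ZNF736, ZNF276 and ZNF536 were among the ZNF genes whose interval reached past 2-fold. For ZNF736 it ran from -1.36 to 1.18 in MUTYH knockout, because its clones differed by more than the genotypes.

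The genes with the smallest P, chosen after their values were seen, show the size of what was measured. ZNF703, a transcriptional regulator amplified in some breast cancers, read 0.28 ± 0.18 (SE) higher in MUTYH knockout on the log2 scale, ZNF516 read 0.33 ± 0.16 higher in OGG1 knockout and ZNF302 read 0.43 ± 0.21 lower in DKO, each with 2 clones per group. Their edgeR adjusted p, over all genes tested, was 0.999 or 1. In DKO against OGG1 knockout the 3 genes past an unadjusted P of 0.05 were ZNF644 (0.38 ± 0.14), a partner of the EHMT histone methyltransferases, ZNF511 (-0.47 ± 0.20) and ZNF473 (0.42 ± 0.17), which acts in histone pre-mRNA processing, and their adjusted p was 1. With side as a block, 0, 6, 9 and 16 of the 186 genes reached P of 0.05 or less before adjustment in the 4 comparisons (4.09%, 7.3%, 7.37% and 8.17% of the other genes at 300 or more), 0 were called and 0 passed an adjusted p of 0.05. The sides were found in these same libraries, so this block lowers the remaining spread by its construction. These P-values are therefore too small to be read as evidence.

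**Figure D2:**
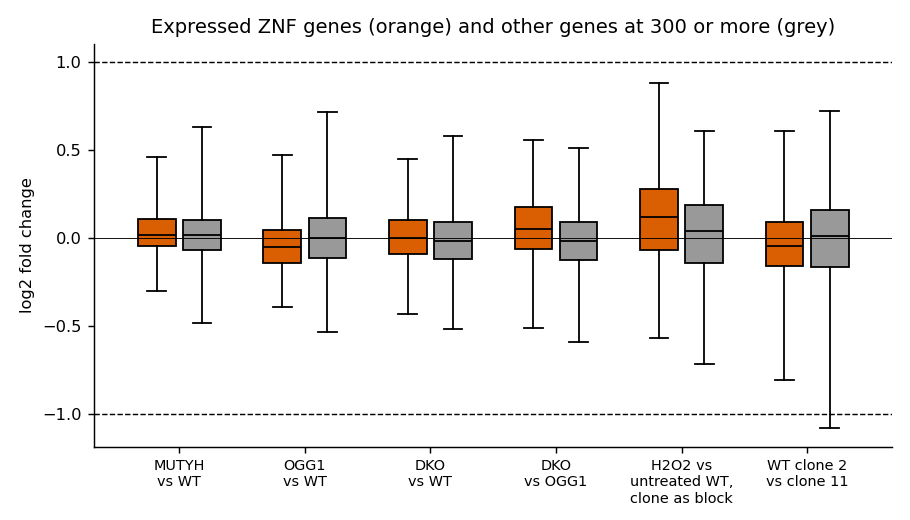
Log2 fold changes of the 186 ZNF genes (orange) and of the 9319 other genes with a mean count of 300 or more (grey) in 6 comparisons. Boxes reach from the lower to the upper quartile with the median as a line, whiskers reach the lowest and highest value of the ZNF genes and the central 98% of the other genes, and dashed lines mark a log2 fold change of 1. All ZNF values lie between the dashed lines, and the orange box stands highest after H2O2, with a median of 0.12 against 0.04.

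The family's lower median in the OGG1 comparison rested on 1 clone. Against WT, 119 of the 186 genes read lower and 67 higher in OGG1 knockout, with a median log2 fold change of -0.05 (0 in the other genes). OGG1 clone 22 was the lowest of the 8 untreated libraries for 73 of the 186 genes (39.2%), and each of the other libraries for 11 to 25. Among the other genes at 300 or more it was lowest for 19.2%. Of the 41 ZFP, ZBTB, ZKSCAN and ZSCAN genes it was lowest for 11, and DKO clone 4 for 15. OGG1 clone 22 was also the highest library for 1963 of the 9319 other genes, more than any other library, and for 22 of the ZNF genes. Without clone 22, 105 of 186 genes read higher in OGG1 knockout and the median was 0.019, and without clone 1 it was -0.136. In DKO clones 4 and 14 the median deviation from the gene's mean over the 8 libraries was 0.002 and -0.005, against -0.096 in OGG1 clone 22 from which they descend. Mitochondrial genes took 4.38% of the counts of clone 22, within the range of the others.

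The low values of clone 22 were spread unevenly over the family. Its median deviation was 0.012 for the 36 genes with 0 to 4 fingers, -0.082 for the 63 with 5 to 9, -0.16 for the 57 with 10 to 14 and -0.175 for the 29 with 15 or more. It was the lowest library for 11, 22, 25 and 15 of them. In the other 7 libraries the medians of the 4 classes stayed between -0.071 and 0.075. The mean counts of the classes also differed, with medians of 834, 673, 591 and 571, and the part of level in this order was not tested. Genes on chromosome 19 and elsewhere were lowest in clone 22 about equally often, at 24 of 60 (40%) and 39.2%.

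**Figure D3:**
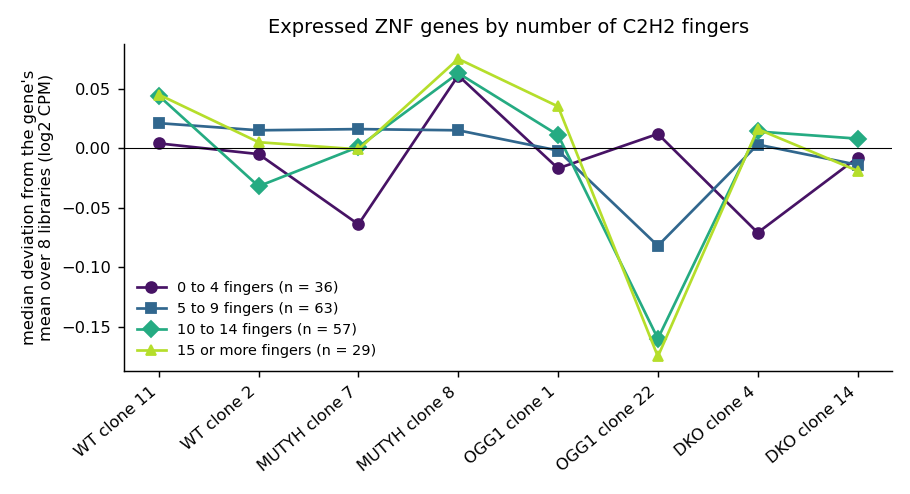
Median deviation of ZNF genes from their own mean over the 8 untreated libraries, in log2 CPM, for 4 classes of the number of C2H2 fingers. Each point is the median of 1 class in 1 library, and lines join the points of a class. OGG1 clone 22 reaches -0.175 for genes with 15 or more fingers and 0.012 for genes with 0 to 4, and the other libraries stay between -0.071 and 0.075.

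After H2O2 the family leaned upwards. Of the 186 genes, 131 (70.4%) read higher in the treated WT libraries and 55 lower, with a median log2 fold change of 0.12, against 56.3% higher and a median of 0.04 in the other genes at 300 or more. In both clones 102 genes read higher and 38 lower, and in 46 the clones went opposite ways. Higher in both were thus 54.8% of the family and 41.6% of the other genes. In clone 2 alone it was 127 of 186 (68.3%, against 57.4%) and in clone 11 123 (66.1%, against 56.5%). Of the 208 ZNF-numbered genes under 300 that were tested, 63% read higher after H2O2, with a median of 0.11. Of the 41 ZFP, ZBTB, ZKSCAN and ZSCAN genes at 300 or more it was 61%, with a median of 0.07. Related genes thus leaned the same way. Mitochondrial genes took 3% and 3.38% of the counts in treated clones 11 and 2, against 5.14% and 5.02% before treatment, and the part of this in the upward lean was not tested. Scaling by library size alone gave 123 of 186 (66.1%) with a median of 0.098, against 53.2% and 0.02 in the other genes.

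None of the genes passed this criterion after H2O2 (0 of 186, against 1.75% of all genes tested and 0.279% of the other genes at 300 or more). The WT libraries share their clones, so clone was also taken as a block. The count of calls stayed at 0. Whatever the fold, 16 genes had P of 0.05 or less before adjustment without the block (8.89% of the other genes) and 51 with it (27.4% of the family, 23.9% of the other genes). Of these 51, 42 were higher (22.6% of the family, 12.5% of the other genes) and 9 lower (4.8% and 11.3%). DESeq2 gave 13 without the block and 21 with it.

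With clone as a block, 3 ZNF genes passed an edgeR adjusted p of 0.05 (3.14% of the other genes did), 2 of them higher. ZNF654, a gene of 5 fingers on chromosome 3, read 14.1 and 14.7 CPM in untreated WT clones 11 and 2 and 22.7 and 31.2 CPM after H2O2. Both treated values lay above all 8 untreated libraries, which reached 17.5 CPM in DKO clone 14. The log2 fold change was 0.88 ± 0.16 (SE), with a 95% interval of 0.53 to 1.24 and an edgeR adjusted p of 0.0175. ZNF681, a gene of 11 fingers on chromosome 19 (chr19:23739195-23758891, minus strand), read 16.5 and 15.1 CPM untreated and 28.5 and 21.9 CPM treated in the same order, which gave 0.66 ± 0.16 and an edgeR adjusted p of 0.0473. With the size factors of DESeq2 in edgeR, ZNF681 did not pass and the other 2 genes did. Its untreated level in DKO clone 14, 21.6 CPM, was close to the lower of the treated values.

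ZNF692, which encodes a protein also named the AICAR response element-binding protein, fell. It read 82.9 and 79.7 CPM in WT clones 11 and 2 and 52.1 and 57.9 CPM after H2O2, with a log2 fold change of -0.57 ± 0.13 and an edgeR adjusted p of 0.035. Untreated MUTYH clone 8 and DKO clone 14 read as low, at 55.2 and 48.6 CPM. Without the block the 3 fold changes were 0.9, 0.67 and -0.57, and each adjusted p was 0.638. DESeq2 with the block passed 1 of the 3, ZNF654.

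The steadiest gene between the clones, ZNF569, was among those that read higher after H2O2. Its treated libraries read 22.4 CPM in clone 11 and 20.9 CPM in clone 2, above the 13.2 to 14.5 CPM of all 8 untreated libraries. The log2 fold change was 0.60 ± 0.16, and the edgeR adjusted p with clone as a block was 0.0708, so it did not pass. ZNF551 read 23.6 and 27.0 CPM after H2O2 against 19.7 and 15.7 CPM before, also with an adjusted p (0.12) that did not pass.

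**Figure D4:**
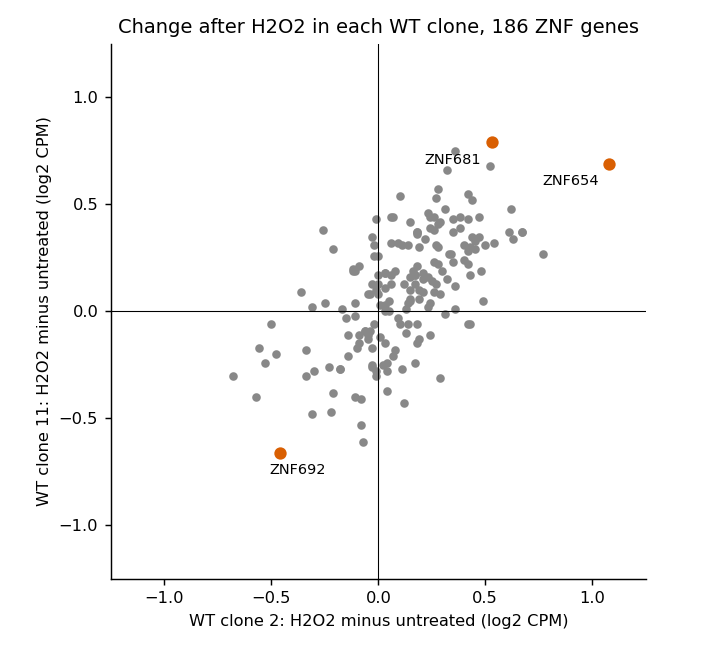
Change of each of the 186 ZNF genes after H2O2 in WT clone 2 (x axis) and WT clone 11 (y axis), as treated minus untreated log2 CPM. Each point is 1 gene, and the 3 orange points passed an edgeR adjusted p of 0.05 when clone was a block. In the upper right are 102 genes, higher in both clones, and in the lower left 38.

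The upward lean differed along the family. Higher values after H2O2 were found in 22 of 36 genes with 0 to 4 fingers, 40 of 63 with 5 to 9, 43 of 57 with 10 to 14 and 25 of 29 with 15 or more, with medians of 0.02, 0.12, 0.17 and 0.13. On chromosome 19 it was 44 of 60 genes with a median of 0.2, and elsewhere 86 genes read higher, with a median of 0.1. These are descriptions of genes in the same 4 libraries. Between the classes the difference was not tested.

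Promoters were compared by sequence where RefSeq (GRCh38.p14) gave them, as windows from 250 bases before to 50 after a start. CpG content and the motifs below were taken over the 250 bases before the start only. The table held 214 windows for 160 of the 186 genes, and none for ZNF654. Their CpG content was high, with a median observed to expected ratio of 0.79 against 0.56 over all 35116 windows. Motifs were searched on both strands. The motif of NRF1, a regulator of nuclear genes for mitochondrial proteins, was in 13.08% of the family's windows and 5.07% of all. CCAAT was in 38.79% of the family's windows and 32.01% of all, TATAAA in 4.67% and 10.72%, and TGACNNNGC, the core of the antioxidant response element, in 11.68% and 10.91%. A match is a description of letters and not a site. The 186 genes were chosen on their level, whereas all windows were counted whatever the level of their gene. The part of level in the differences of CpG content and motifs was not tested, so they are not read as particular to the family.

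A stretch of promoter was shared by ZNF681 with other genes of the family. It was looked for after the values were seen. The longest run common to the promoters of ZNF681, ZNF680 and ZNF273 was 14 bases, and over all 35116 windows it occurred in 10 (0.028%), on the strand of the gene, of which 9 belonged to ZNF-numbered genes. ZNF107, ZNF267, ZNF273, ZNF680 and ZNF681 were the 5 among the 186 genes. Upstream sequence free of annotated exons is shown for 3 of them (RefSeq starts, GRCh38), with the common run in capitals.
ZNF681, chr19:23758892-23759141, minus strand: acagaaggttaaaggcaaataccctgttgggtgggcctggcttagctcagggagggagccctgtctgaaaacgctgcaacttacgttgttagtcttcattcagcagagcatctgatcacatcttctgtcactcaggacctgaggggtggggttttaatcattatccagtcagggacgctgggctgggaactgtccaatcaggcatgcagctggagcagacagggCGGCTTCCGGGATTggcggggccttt
ZNF680, chr7:64563076-64563321, minus strand: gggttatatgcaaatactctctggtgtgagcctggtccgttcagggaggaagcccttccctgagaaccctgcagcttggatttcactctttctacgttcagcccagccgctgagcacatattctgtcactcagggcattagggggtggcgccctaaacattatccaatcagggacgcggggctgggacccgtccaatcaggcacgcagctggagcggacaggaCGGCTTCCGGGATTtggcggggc
ZNF267, chr16:31873557-31873806, plus strand: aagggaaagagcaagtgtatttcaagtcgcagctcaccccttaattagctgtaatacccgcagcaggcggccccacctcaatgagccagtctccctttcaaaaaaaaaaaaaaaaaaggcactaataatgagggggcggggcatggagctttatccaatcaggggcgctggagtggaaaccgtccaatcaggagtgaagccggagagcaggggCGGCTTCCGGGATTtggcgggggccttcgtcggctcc
After H2O2 all 5 genes read higher, from 0.14 in ZNF680 to 0.66 in ZNF681, with 0.35 in ZNF107, 0.39 in ZNF267 and 0.48 in ZNF273 on the log2 scale and clone as a block. Of these ZNF681 alone passed an edgeR adjusted p of 0.05, and the others had 0.651, 0.151, 0.17 and 0.114 in the order ZNF680, ZNF107, ZNF267 and ZNF273. Since 131 of the 186 genes read higher, nothing particular to the run is read from this.

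The 2 WT clones were compared with treatment as a covariate, so each clone had 2 libraries. Again 0 of the 186 genes were called, against 6.15% of all genes tested and 1.59% of the other genes at 300 or more. Before adjustment, 22 genes had P of 0.05 or less in edgeR (23.5% of the other genes) and 16 in DESeq2. An edgeR adjusted p of 0.05 was passed by 8 genes (8.66% of the other genes), with 4 lower and 4 higher in clone 2.

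The 4 lower genes were ZNF536, ZNF711, ZNF436 and ZNF462. ZNF536, a repressor of neuronal differentiation, read 15.2 CPM untreated and 20.6 CPM treated in clone 2 against 31.4 and 29.9 CPM in clone 11, a log2 fold change of -0.81 ± 0.16 with an edgeR adjusted p of 0.00628. The knockout clones covered the range between, from 19.1 CPM in DKO clone 4 to 32.1 CPM in MUTYH clone 7. ZNF711 read 132 and 134 CPM in clone 2 against 218 and 182 CPM in clone 11 (-0.61 ± 0.13, adjusted p = 0.00874). ZNF436 (-0.59) and ZNF462 (-0.52), a gene of 33 fingers that is mutated in a neurodevelopmental syndrome, were the other 2.

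ZNF496 (0.55), ZNF608 (0.61), ZNF783 (0.59) and ZNF335 (0.48), a subunit of histone methyltransferase complexes that is needed in neural progenitors, were higher in clone 2. ZNF496 read 75.4 CPM untreated and 70.2 CPM treated in clone 2, above the 48.7 to 60.3 CPM of the other 8 libraries. ZNF496 lies at the end of chromosome 1, where a wider shift was measured: all 14 other genes at 300 or more within 5 Mb of it read higher in clone 2, with a median of 0.27. On the long arm of chromosome 1, 337 of 387 such genes read higher (median 0.3), as did 6 of 6 genes of the family (median 0.36), against 250 of 538 and 1 of 4 on the short arm. Around the other 7 genes the median of the genes within 5 Mb was between -0.13 and 0.07. The part of chromosome 1 in the value of ZNF496 was not tested.

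The co-repressors through which KRAB zinc finger proteins act were followed on their own list. Of 36 genes for TRIM28, SETDB1, heterochromatin proteins, the NuRD and HUSH complexes and DNA methylation, 0 were called in any of the 6 comparisons by edgeR, and 0, 1, 0, 0, 2 and 4 had P of 0.05 or less before adjustment (0.751%, 1.56%, 1.67%, 1.74%, 8.89% and 23.5% of the other genes at 300 or more). With clone as a block after H2O2 it was 7 of 36 (19.4%, against 23.9% of the other genes), and none of these passed an adjusted p of 0.05. TASOR2, of a HUSH-related complex, read 0.43 higher on the log2 scale, and the other 6 read lower, namely the NuRD subunits CHD3 (-0.38), CHD4 (-0.37) and MTA1 (-0.3), the DNA methyltransferases DNMT3A (-0.44) and DNMT3B (-0.42), and the histone methyltransferase EHMT2 (-0.32). TRIM28 read 794 and 731 CPM in WT clones 11 and 2, 844 and 727 in MUTYH clones 7 and 8, 789 and 666 in OGG1 clones 1 and 22, 799 and 632 in the DKO clones (4 and 14), and 719 and 828 in treated WT clones 11 and 2. Its log2 fold changes against WT were 0.06 ± 0.19, -0.06 ± 0.19 and -0.08 ± 0.19 in MUTYH knockout, OGG1 knockout and DKO, and 0.01 ± 0.13 after H2O2 with clone as a block. SETDB1 lay between 44.2 and 58.8 CPM in all 10 libraries.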

How the data were processed

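RNA of 8 untreated and 2 H2O2-treated HAP1 clone cultures was sequenced on DNBseq. The authors deposited raw read counts per gene, made with HISAT2 2.2.1 (reads checked with FastQC 0.11.9) and Rsubread featureCounts on GRCh38.p13, in 1 table for the 8 untreated libraries and 1 for the 4 treated and untreated WT libraries. The untreated WT libraries had the same counts in both. The authors' rule, P of 0.05 or less and a difference over 2-fold, was kept. They used R 4.2.2 with edgeR 3.42.4.

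Here the deposited counts went into the quasi-likelihood test of edgeR 4.0.16 in R 4.3.3 (glmQLFit with the method of edgeR 3, TMM scaling, filterByExpr) and limma 3.58.1, on all genes of a table, with Benjamini-Hochberg adjustment over all genes tested. DESeq2 1.42.0 was the other test. The genotype fit used all 8 libraries with 4 residual degrees of freedom, the treatment fit had 2, and the treatment fit with clone as a block had 1. P-values measure the spread between these clones in the genotype comparisons, and the spread left within clones where clone was tested or taken as a block. With side as a block they measure the spread left after the sides, which were found in the same libraries. Log2 CPM used a prior count of 2. The WT clones pair the treated and untreated libraries because they are the same clones, and deviations of same-numbered libraries had r = 0.68 across 16997 genes. The code was tested on simulated counts. Positions, exon overlap, fingers and shared 50-base stretches came from GENCODE v44, which lacked ZNF720 by symbol, and promoters from RefSeq.

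Genes were named as called, as the widest, steadiest and highest, as those where 1 library stood apart, as neighbours within 200 kb of those, or as most like the widest. Others named were chosen after their values were seen. The members, lists and tests were chosen with earlier results of these data known. Alternatives changed the scaling, test, filter, membership minimum, libraries and block.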

Additional observations from a re-analysis of the deposited data

Results flagged for a closer look

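For 11 of the named ZNF genes the change after H2O2 had opposite signs in the 2 WT clones, which have 1 treated and 1 untreated library each. Genes named for an adjusted p after H2O2 or between the WT clones were included. Opposite signs were also found in 46 of all 186 ZNF genes and in 2857 of the 9319 other genes at 300 or more. Nothing particular to the named genes is read from the count. In each case the difference between the clones was not tested. The values are treated minus untreated log2 CPM, first in clone 2 and then in clone 11.

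The widest gaps among them were in ZNF276 (0.12 and -0.43), ZNF211 (-0.21 and 0.29) and ZNF536 (0.43 and -0.06). ZNF276 and ZNF536 were among the genes whose untreated WT clones differed most. ZNF202 (0.11 and -0.27), ZNF22 (-0.02 and 0.31), ZNF711 (0.02 and -0.25) and ZNF783 (0.08 and -0.18) followed. In ZNF736 (0.1 and -0.06), ZNF117 (-0.11 and 0.04), ZNF462 (0.09 and -0.03) and ZNF609 (-0.0003 and 0.08) both changes were small. Among other genes named in the text, ZNF703 (-0.36 and 0.09), ZNF516 (-0.17 and 0.01) and ZNF839 (0.07 and -0.21) also had opposite signs.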

How the results depend on the processing

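No alternative reversed the fold change of a gene followed through the alternatives. These were the gene with the smallest P in each knockout comparison, and the genes past an edgeR adjusted p of 0.05 after H2O2 or between the WT clones. The other named genes were not followed in this way. The direction of the family in OGG1 knockout against WT did turn without OGG1 clone 22, from a median of -0.05 (67 of 186 genes higher) to 0.019 (105 higher), and lay between -0.136 and 0.019 when 1 library at a time was left out. In DKO against OGG1 knockout leaving out the same clone took the median from 0.046 to -0.002. For counts of genes, 89 values stayed within 1.5 times the count reported and 13 moved. Leaving out 1 library gave 0 to 1 calls in MUTYH knockout against WT (1 without WT clone 11, ZNF536, and 1 without MUTYH clone 7, ZNF736), 0 to 1 in DKO against OGG1 knockout (1 without OGG1 clone 1, ZNF605) and 0 to 1 after H2O2 (1 without treated WT clone 11, ZNF654). With a mean count of 100 or more as the minimum, which gave 323 genes, 1 was called in OGG1 knockout against WT (ZNF423), 1 after H2O2 (ZNF467) and 4 between the WT clones (ZNF660, ZNF704, ZNF256 and ZNF606). Between the WT clones an adjusted p at any fold gave 8, and 4 with DESeq2, which no longer passed ZNF608 (0.109), ZNF783 (0.108), ZNF335 (0.0917) and ZNF462 (0.0717).

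After H2O2 with clone as a replicate block, 0 genes were called, and the 3 genes past an edgeR adjusted p of 0.05 became 12 with scaling by library size only, 10 with no filter, 5 with at least 10 counts in every library, 2 with DESeq2 size factors in edgeR (without ZNF681) and 1 with DESeq2. The cause was not tested. The block on clone changed no other call. The counts before adjustment with side as a block, the values of each clone alone, and the scalings of the counts of higher genes and of genes lowest in OGG1 clone 22 were added after seeing the data. Leaving out a library could not be fitted between the WT clones, since no residual degree of freedom was left. Depth limits the genes near 300 counts, where counting error is largest.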
